A study of Mus musculus with 27 samples.

Results

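The tumors of line 123 were compared with those of 3 other tumor lines. Line 123 is an immortalized mouse neural stem cell line labelled wild type (WT) for p53, and 3 of the 27 arrays of the series held tumors grown from it. They were chosen by their titles and set against the 9 tumors of lines 1, 31 and 59, 3 of each. Line 1 was labelled WT like line 123, and lines 31 and 59 were labelled p53 mutant. All 12 tumors were taken from subcutaneous tissue of hosts of the strain CB17/ICR-Prkdcscid/IcrCrl, immunodeficient (SCID) mice that lack mature B and T cells. The labels do not say how the lines were immortalized or of which sex they are. Each tumor group came from 1 line, so line, p53 label and any other trait of that line cannot be told apart. The titles call the 3 tumors of a line biological replicates without saying whether each grew in its own mouse, so the p-values rest on the spread among these arrays, which may be partly technical.

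Of the lines grown as tumors, lines 31, 59 and 123 were also profiled in culture, 1 array each, among 10 immortalized lines (31 and 59 with mutant p53, 123 WT). Values are log2 signals of the probe set chosen for each gene, so that a difference of 1 is 2-fold, and levels of different genes cannot be compared. Median signals were 5.51 to 5.57 in the line 123 tumors, 5.47 to 5.56 in the other tumors and 7.02 to 7.08 in the immortalized cultures. Tumors and cultures appear to have been scaled apart, and each was therefore compared only within its own set. Across genes the 3 line 123 tumors correlated at 0.979 to 0.982 with each other, at 0.963 to 0.975 with line 59 tumors, at 0.944 to 0.968 with line 31 tumors and at 0.946 to 0.963 with line 1 tumors.

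Neural stem cells divide and give rise to neurons and glia. As they leave the stem cell state, they switch on regulators of microtubules and adhesion molecules that let a neuron extend its processes. In female mammalian cells 1 X chromosome is silenced by Xist, a long RNA made by and spread over that chromosome. Imprinted genes such as Ndn are read from the copy inherited from 1 parent, while the other copy is kept silent by DNA methylation.

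The line 123 tumors had high signals of a microtubule regulator, Stmn2, of the leptin receptor, Lepr, and of a homeobox gene, Hdx, and a low signal of Xist. Adhesion and basement membrane genes (Cdh10, Epha3, Nid1), the imprinted gene Ndn, the opioid precursor Penk, the stem cell receptor Lgr5 and the complement component C2 were also higher. The matrix protease Mmp9 was lower. Of the 44 lower genes, 14 lay on chromosome 3, which is 1.485% of its 943 genes, against 0.221% over all genes. In the comparison with the mean of the 3 other lines, 169 of 19937 genes (0.848%) passed the threshold, an adjusted p under 0.05 in limma over all genes. Of these, 125 (0.627%) were higher and 44 (0.221%) lower in line 123. The calls depended on single tumors: 76 genes were called without line 123 replicate 2 and 44 without replicate 3. Of the 39 called genes that the naming rule picked, 8 lost their call without replicate 1, 18 without replicate 2 and 22 without replicate 3, and all 39 kept their direction. With the 9 other tumors as 1 group 27 of the 39 lost their call, and with line as a random block as well 31 did. Stmn2, Olfr1372-ps1, Lepr, Hdx, Cdh10, Epha3, Ndn, Penk, Tll1, Nid1, C2, Nnat, Meis2, Tek, Xist and Mmp9 kept theirs whichever line 123 tumor was left out.

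Against single lines, 617 genes (3.09%) were called against line 1, 147 (0.737%) against line 31 and 109 (0.547%) against line 59. Against each of the 3 lines, in the same direction, 25 genes (0.125%) were called, 24 higher and 1, Xist, lower. The 24 were C2, Cavin2, Cdh10, Epha3, Hdx, Igf2bp3, Itga11, Lepr, Lgr5, Mlh3, Myh10, Ndn, Neo1, Nid1, Noxred1, Olfr1372-ps1, Penk, Prkg1, Rasgrf1, Rhag, Rps6ka6, Slc38a4, Tll1 and Tspan8. In 254 genes (1.27%) all 3 line 123 tumors lay above all 9 others, and in 193 genes (0.968%) all 3 lay below. Of the called genes, 88 of the 125 higher ones and 24 of the 44 lower ones had no overlap of this kind.

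Stmn2 encodes stathmin-2, a neuronal protein that binds tubulin and keeps growing microtubules dynamic. Its log2 signal was 10.23, 9.90 and 11.42 in the 3 line 123 tumors. It was 5.70, 4.66 and 5.01 in line 1, 5.51, 5.51 and 6.07 in line 31 and 9.70, 6.89 and 7.76 in line 59. All 3 line 123 tumors were above all others, but the highest line 59 tumor came within 0.21 of the lowest of them. The difference from the mean of the 3 lines was 4.20 ± 0.48 (SE; adjusted p = 0.00116, limma), 18.4-fold, the largest increase among the called genes. Against line 59 alone it was 2.40 ± 0.59 and was not called (adjusted p = 0.106). In culture, line 123 was at 10.59, line 59 at 11.13 and line 31 at 6.44. The other 9 lines together ran from 6.23 to 11.38, the value of line 95, so line 123 was 3rd of 10. High Stmn2 was thus not particular to line 123 there.

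Lepr encodes the receptor for leptin, a fat-derived hormone, and signals through JAK2 and STAT3. It was at 8.07, 7.42 and 8.84 in the line 123 tumors and between 4.28 and 5.08 in the 9 others. The groups did not overlap, and the 9 others lay within a range of less than 1 log2 unit. The difference was 3.38 ± 0.27 (SE; adjusted p = 0.000108, limma), and it was 3.29 against line 1, 3.30 against line 31 and 3.55 against line 59, all called. The mean of the 9 others, 4.73, was under the 25th percentile of all genes, 4.75, and is not shown to be above background, so no fold is given. Of the cultures, line 123 was at 8.45 and lines 31 and 59 at 5.37 and 5.40, while the other 9 lines together ran from 5.37 to 11.24, so line 123 was 3rd of 10.

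Hdx encodes a homeodomain protein of the X chromosome whose function is little known. Its signal was 6.75, 6.19 and 6.93 in the line 123 tumors and 3.43 to 4.42 in the others. All 3 values lay more than 1.5 units above the highest other tumor. The difference was 2.76 ± 0.20 (SE; adjusted p = 8.94e-05, limma), and each line taken alone gave a call, with 2.61, 2.68 and 2.99 against lines 1, 31 and 59. The mean of the 9 other tumors, 3.86, was under the 25th percentile of all genes, 4.75, and is not shown to be above background. The line 123 culture was at 7.78, against 5.98 in line 31 and 5.15 in line 59. The other 9 lines in culture together ran from 4.83 to 7.98, so line 123 was 3rd of 10.

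The genes beside these did not move with them, except at Hdx. Of the 5 measured genes on either side of Stmn2 in the RefSeq order (GRCm38.p6), none was called, with differences of -0.28 to 0.32. None of the 10 around Lepr was called, from -0.57 to 0.23. They include Leprot, the membrane protein gene just before Lepr, at 0.14 (adjusted p = 0.858, limma). Next to Hdx, Rps6ka6, which encodes a ribosomal S6 kinase, was higher by 1.72 ± 0.16 (SE; adjusted p = 0.00025, limma), with a mean of 5.07 ± 0.28 (SD, n = 3) against 3.35 ± 0.27 (SD, n = 9). The mean of the 9 others was under the 25th percentile of all genes, 4.75, and is not shown to be above background. The other 9 neighbours of Hdx were not called, from -0.24 to 0.40.

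**Figure D1:**
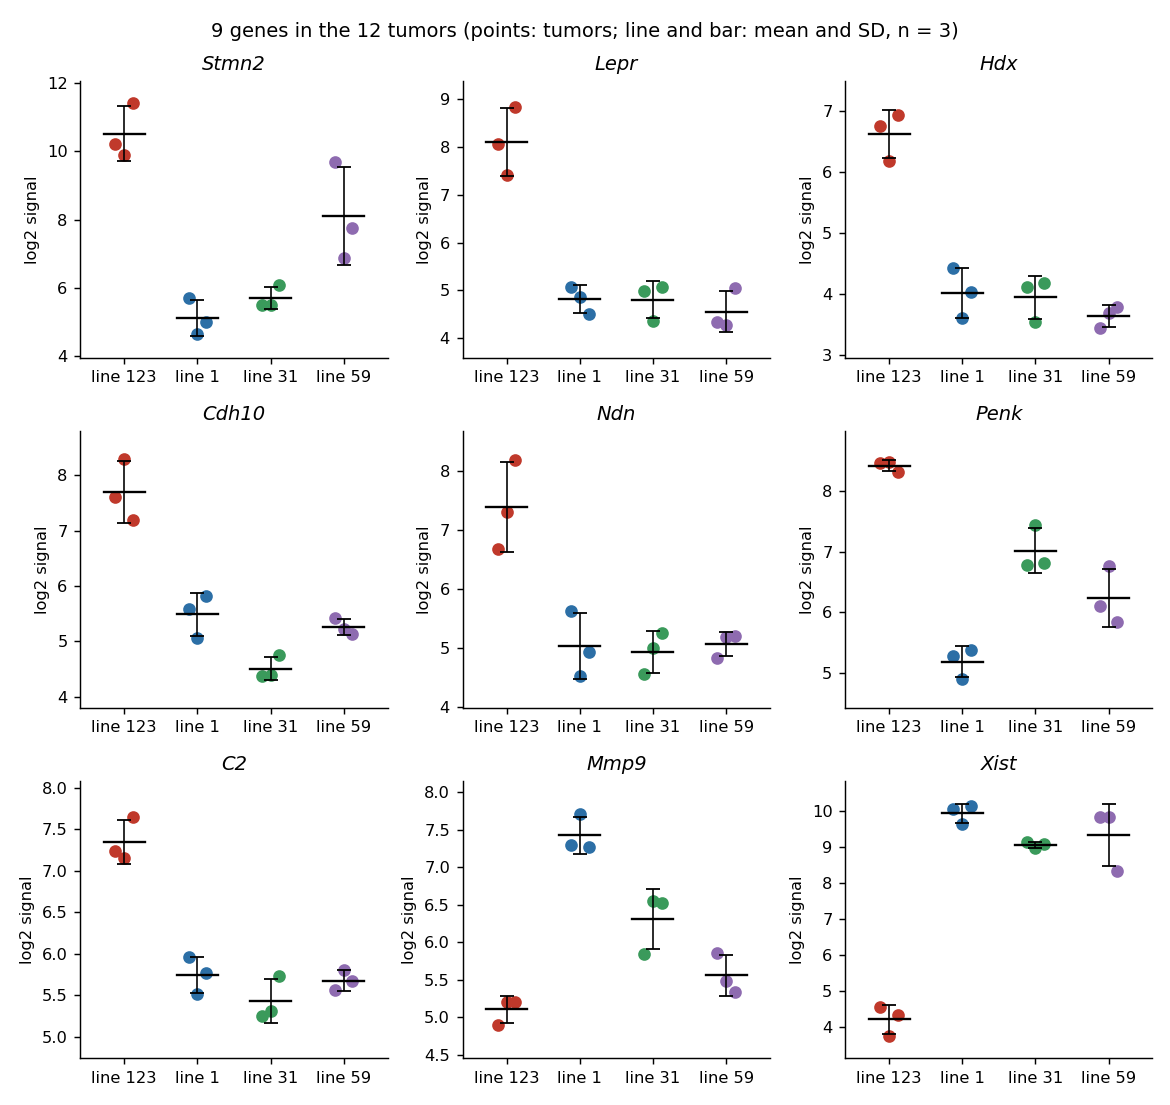
Log2 signal (vertical axis) of 9 genes in the 12 tumors, grouped by tumor line, with the mean and SD of 3 tumors. The line 123 tumors lie above all others for Stmn2, Lepr, Hdx, Cdh10, Ndn, Penk and C2 and below all others for Mmp9 and Xist, with Stmn2 of line 59 and Mmp9 of line 59 closest to them.

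The stretches upstream of Lepr, Hdx, Ndn and Xist are shown because each of these genes was called against every line, and methylation of CG dinucleotides near a start is a known way to silence a gene, with Ndn and Xist as textbook cases. Each is the 250 bases before the annotated start in RefSeq (GRCm38.p6), read 5′ to 3′ on the gene's strand, with every CG in capitals. Lepr has a 2nd listed start, which is not shown.
Lepr, chr4:101717157-101717406, plus strand: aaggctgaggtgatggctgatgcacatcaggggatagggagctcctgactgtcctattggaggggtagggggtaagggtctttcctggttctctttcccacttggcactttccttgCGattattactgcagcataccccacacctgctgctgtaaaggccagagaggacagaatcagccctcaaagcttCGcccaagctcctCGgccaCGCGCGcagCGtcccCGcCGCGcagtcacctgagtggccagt
Hdx, chrX:111697080-111697329, minus strand: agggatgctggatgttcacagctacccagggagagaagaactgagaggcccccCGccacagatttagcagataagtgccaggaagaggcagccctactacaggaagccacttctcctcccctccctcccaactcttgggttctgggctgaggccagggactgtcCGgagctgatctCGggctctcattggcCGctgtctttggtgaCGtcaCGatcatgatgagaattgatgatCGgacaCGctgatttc
Ndn, chr7:62348027-62348276, plus strand: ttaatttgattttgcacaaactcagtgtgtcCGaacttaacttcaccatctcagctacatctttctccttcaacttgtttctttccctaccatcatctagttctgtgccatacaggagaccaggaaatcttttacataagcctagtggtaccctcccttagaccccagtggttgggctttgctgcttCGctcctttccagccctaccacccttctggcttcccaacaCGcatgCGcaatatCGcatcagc
Xist, chrX:103483234-103483483, minus strand: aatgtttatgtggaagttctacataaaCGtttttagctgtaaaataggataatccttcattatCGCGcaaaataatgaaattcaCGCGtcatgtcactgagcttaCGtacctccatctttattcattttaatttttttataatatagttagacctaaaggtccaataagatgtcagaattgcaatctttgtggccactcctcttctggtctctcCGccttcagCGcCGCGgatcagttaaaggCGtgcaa
The Lepr stretch holds 10 CG dinucleotides, most of them near the start, that of Hdx 8, that of Ndn 5 and that of Xist 11. Over all 32851 listed stretches of this length the median was 6, and 37.8%, 43.0%, 55.6% and 35.6% held at least as many. The box CCAAT (or ATTGG on the other strand) was in those of Lepr, Hdx and Xist and in 33.9% of all stretches, and TATAAA (or TTTATA) was in that of Xist and in 12.4% of all. No methylation was measured here, and these matches only describe the letters.

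Among cell adhesion genes, Cdh10, a cadherin of developing brain, was at 7.60, 8.29 and 7.19 in the line 123 tumors and at 4.38 to 5.81 in the others. The groups did not overlap, and the difference was 2.61 ± 0.21 (SE; adjusted p = 0.000108, limma). The line 123 culture was the highest of 10 lines, at 10.08 against 5.90 to 8.47. Cdh10 was the single call among 38 cadherins and protocadherins measured, whose median difference was -0.03, as was that of all genes. Epha3, a receptor for ephrin-A ligands on the surface of neighbouring cells, was at 6.99 to 8.52 against 4.47 to 6.13. Its difference was 2.43 ± 0.33 (SE; adjusted p = 0.00516, limma), and it was the single call among 47 axon guidance genes (median 0.07). In culture it was low in line 123 (5.99), 5th of 10 lines. Neo1, which encodes neogenin, a receptor for netrins and repulsive guidance molecules, was higher by 1.28 ± 0.13 (SE; adjusted p = 0.000489, limma).

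Nid1 encodes nidogen-1, which links laminin and collagen IV networks in basement membranes. It was at 8.75, 8.76 and 9.64 in the line 123 tumors and at 6.41 to 8.12 in the others, with no overlap. The difference was 1.80 ± 0.19 (SE; adjusted p = 0.000638, limma), and line 123 was 2nd of 10 lines in culture, at 10.96. Tll1, a protease of the BMP1 family that processes collagen precursors, was at 7.52, 8.04 and 7.82 against 5.05 to 6.06, a difference of 2.26 ± 0.18 (SE; adjusted p = 0.000108, limma). It was also the highest of 10 lines in culture, at 10.14. Itga11, an integrin chain that binds fibrillar collagen, was higher by 1.59 ± 0.24 (SE; adjusted p = 0.00949, limma), although in culture line 123 was 8th of 10 lines. Among 35 matrix proteins and proteoglycans Nid1 was the single call (median 0.07), and among 34 collagens none was called, with a median of 0.02.

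Cldn1, a tight junction protein of epithelia, was at 7.52 to 8.40 against 4.48 to 7.21 and was called (2.11 ± 0.34, SE; adjusted p = 0.0112, limma), but not against line 31 or line 59. Of 18 keratinocyte genes measured none was called, 14 had an unadjusted p under 0.05, and their median difference was 0.93. The mean signal of the 18 keratinocyte genes was 6.38, 6.35 and 6.74 in the line 123 tumors and 4.88 to 6.74 in the others. There 1 line 59 tumor reached 6.74, and subcutaneous tissue was at 6.67 to 7.47. The part of these genes in the Cldn1 difference was not tested. In bulk tissue, more cells of a type and more RNA per cell cannot be told apart. In culture, Cldn1 of line 123 was the highest of 10 lines, at 8.18 against 6.03 to 7.94. Without line 123 replicate 1 or 3, Cldn1 differed by 1.94 or 2.00 and was not called (adjusted p = 0.0513 and 0.108, limma).

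Eno3, the muscle form of the glycolytic enzyme enolase, was at 7.95, 8.80 and 9.72 against 5.74 to 7.58 (2.16 ± 0.33, SE; adjusted p = 0.00928, limma). It was called against lines 1 and 31 but not against line 59 (1.46 ± 0.40, SE; adjusted p = 0.149, limma). It is 1 of 20 skeletal muscle genes, of which 11 had an unadjusted p under 0.05 and Eno3 alone was called, with a median of 0.76. The mean signal of the 20 was 6.29, 7.58 and 6.92 in the line 123 tumors, 5.35 to 7.07 in the others and 7.38 to 8.04 in subcutaneous tissue. The defining muscle genes Ckm, creatine kinase, and Acta1, skeletal actin, differed by 0.23 and 1.20 and were not called (adjusted p = 0.60 and 0.28, limma). In culture, where the muscle genes had means of 6.68 to 7.01, Eno3 of line 123 was at 10.68, above the 8.04 to 9.13 of the other 9 lines. Without line 123 replicate 2 or 3, Eno3 differed by 2.17 or 1.71 and was not called (adjusted p = 0.0539 and 0.0675, limma).

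The list of imprinted genes used here, which is not a full one, held 3 calls among its 21 measured members, with a median of -0.05. Ndn encodes necdin, a protein of postmitotic neurons that restrains the cell cycle. It was at 6.69, 7.30 and 8.19 in the line 123 tumors and at 4.53 to 5.63 in the others, with no overlap. The difference was 2.38 ± 0.29 (SE; adjusted p = 0.00199, limma). Again the line 123 culture was the highest, at 7.56 against 5.54 to 6.49. None of the 10 nearest measured genes of Ndn was called, among them its imprinted neighbours Magel2 at -0.20 and Mkrn3 at 0.22. Nnat, neuronatin, an imprinted gene of neural progenitors on another chromosome, was at 6.90, 6.69 and 7.97 against 5.15 to 5.95. Its difference of 1.63 ± 0.23 (SE; adjusted p = 0.00644, limma) was called against lines 1 and 31 but not against line 59 (adjusted p = 0.056). The third call, Sgce, came from line 31, whose tumors were at 5.88 to 6.23. Line 123 was at 8.38 to 8.96, and its differences from lines 1 and 59 were 0.17 and -0.15.

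Other secreted or surface proteins also separated line 123. Penk, the precursor of the enkephalin opioid peptides, was at 8.46, 8.49 and 8.32 against 4.91 to 7.45. Its difference was 2.27 ± 0.20 (SE; adjusted p = 0.000116, limma), although in culture line 123 was only 3rd of 10 lines. Lgr5, the R-spondin receptor that marks intestinal and hair follicle stem cells, was at 7.48, 8.79 and 8.20 against 5.81 to 7.24 (1.93 ± 0.28, SE; adjusted p = 0.00768, limma). It was the single call among 46 Wnt pathway genes, whose median was 0.01, and its call was lost without line 123 replicate 2 (1.61) or 3 (1.90). Slc38a4, an amino acid transporter, was at 6.20, 7.16 and 7.63 against 4.62 to 5.22, and in culture it was at 11.41 in line 123 against 5.98 and 6.09 in lines 31 and 59. C2, a complement protease mostly made by liver and macrophages, was at 7.24, 7.16 and 7.65 against 5.26 to 5.96 (1.73 ± 0.15, SE; adjusted p = 0.000116, limma). The 23 macrophage genes held no call, with a median of -0.15 and means of 7.97 to 8.25 against 7.54 to 8.91. Their part in the C2 difference was not tested. In culture, C2 of line 123 was at 7.80, above the 6.21 to 6.52 of all 9 other lines.

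Some of the largest increases were in genes with low signals elsewhere. Olfr1372-ps1, listed as an odorant receptor pseudogene, was at 5.69, 7.08 and 7.63 against 2.46 to 3.51 (3.66 ± 0.31, SE; adjusted p = 0.000116, limma). Ublcp1, a phosphatase of nuclear proteasomes, was at 7.18, 6.97 and 7.14 in line 123 and scattered from 3.14 to 5.94 in the others (2.52 ± 0.46, SE; adjusted p = 0.0235, limma), and it was not called against line 31. For 4 of the 10 named increases the mean of the 9 other tumors was under 4.75, the 25th percentile of all genes.

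**Figure D2:**
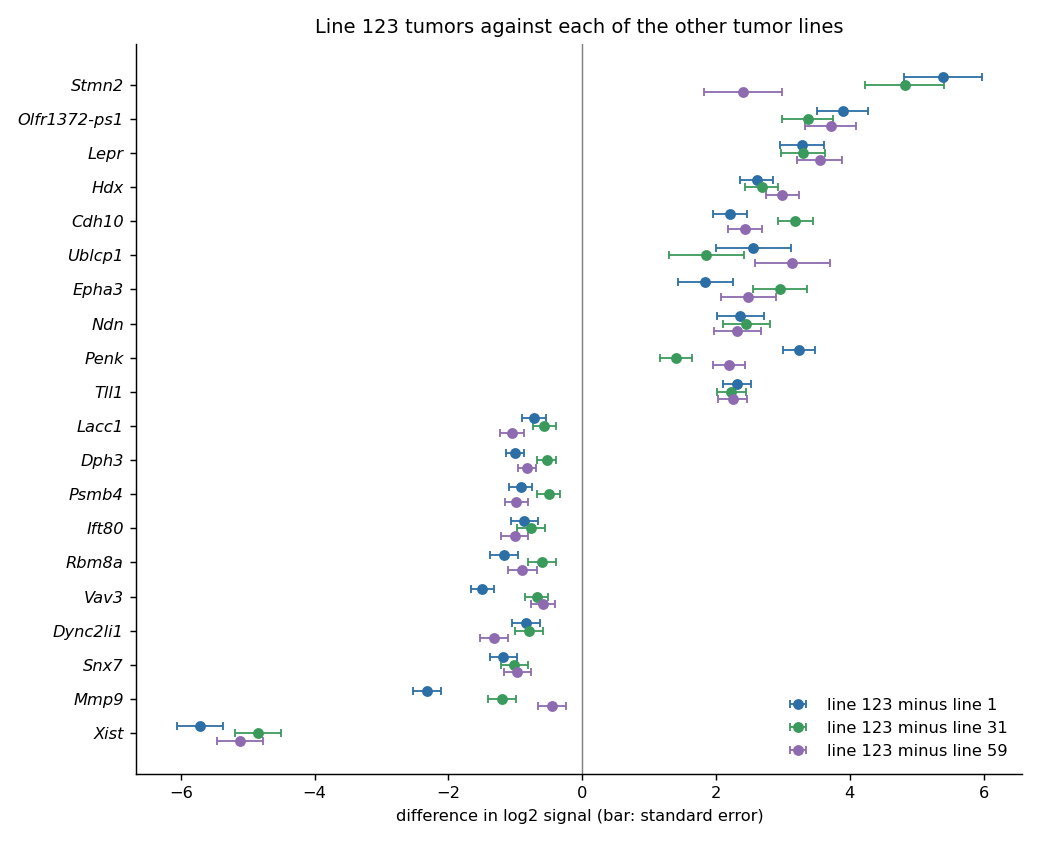
Difference in log2 signal between the line 123 tumors and those of line 1, 31 or 59 (horizontal axis, with SE) for the 10 named increases and 10 named decreases. The increases in Lepr, Hdx, Ndn and Tll1 were of like size against each line, those in Stmn2 and Penk were not, and no decrease but that of Xist was larger than 3.

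Among 30 genes of the neuronal cytoskeleton, Stmn2 and Map1b, a microtubule-associated protein of growing axons, were called (Map1b by 1.03 ± 0.20, SE; adjusted p = 0.0335, limma), and the median was 0.12. Map1b in line 123 (9.31, 9.21 and 9.64) overlapped line 59 (9.23, 9.01 and 9.47). The related stathmins Stmn1, Stmn3 and Stmn4 differed by 0.03, 0.12 and -0.26, and Tubb3, a neuronal tubulin, by 0.78 (adjusted p = 0.274, limma). Of 24 genes of neuronal synapse and identity none was called, also at an unadjusted p under 0.05, and the median was -0.04. From the mean of the 3 lines, the neural stem cell genes Sox2 and Nes differed by 0.56 and -0.48. The glial genes Gfap and Olig2 differed by -0.22 and -0.31, and none of the 4 was called. Against line 59 alone Nes was called (-1.70 ± 0.31, SE; adjusted p = 0.0298, limma). Sox2 differed by 1.6, 1.1 and -1.0 against lines 1, 31 and 59, without a call. Gfap at 4.59, 4.82 and 4.68 and Olig2 at 4.44, 4.41 and 4.23 lay under or near the 25th percentile of all genes (4.75).

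Ccnd1, cyclin D1, which drives cells through G1, was at 9.16, 9.24 and 9.78 in the line 123 tumors and at 6.91 to 8.67 in the others. The difference was 1.58 ± 0.24 (SE; adjusted p = 0.00868, limma), called against lines 1 and 31 but not against line 59 (adjusted p = 0.168). Ccnd2, cyclin D2, was at 8.70, 8.83 and 8.77 against 6.75 to 8.22, without overlap, and lay just inside the threshold (1.16 ± 0.24, SE; adjusted p = 0.050, limma). It was not called against line 1, 31 or 59 alone (adjusted p = 0.095, 0.077 and 0.111, limma). Cdkn2b, an inhibitor of the cyclin D kinases, was at 7.65, 7.88 and 8.28 and overlapped line 31 (7.63, 7.95 and 7.03). Its difference of 0.98 ± 0.18 (SE; adjusted p = 0.0293, limma) was called against line 1 but not against line 31 or 59. These were the 3 calls among 19 cell cycle inhibitors and G1 cyclins, whose median was 0.05. Without line 123 replicate 3 none of the 3 was called, with differences of 1.38, 1.16 and 0.81 for Ccnd1, Ccnd2 and Cdkn2b. In culture, Ccnd1, Ccnd2 and Cdkn2b of line 123 were each the highest of 10 lines, at 12.31, 11.52 and 9.44. Its neighbour Cdkn2a, which encodes p16 and Arf, differed by 0.44 (adjusted p = 0.121, limma). Of 32 genes of the cell cycle and DNA replication none was called (median -0.08), and Mki67, a marker of dividing cells, was at 7.90 to 7.99 against 7.55 to 8.80.

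The p53 targets did not set line 123 apart: of 27 measured none was called, with 4 at an unadjusted p under 0.05 and a median of 0.01. Mdm2, a p53 target and inhibitor, was at 8.22, 7.82 and 7.59 and overlapped the other tumors, at 7.65 ± 0.16 (SD, n = 9; difference 0.23 ± 0.14, SE; adjusted p = 0.570, limma). Line 123 shares its WT label with line 1. Between line 123 and single lines, 617 genes were called for line 1, 147 for line 31 and 109 for line 59. Against the mean of the p53 mutant lines 31 and 59, 99 were called. With each line set against the mean of the other 3, 922 genes were called for line 1, 277 for line 31, 233 for line 59 and 169 for line 123. A part of the p53 label in these counts was not tested. Egfr and Pdgfrb, growth factor receptors, each differed by 0.18 and were not called. Met, the receptor for hepatocyte growth factor, was at 12.64, 10.18 and 12.47 in line 123 and at 7.41 to 12.02 in the others, and was not called (1.94 ± 0.89, SE; adjusted p = 0.406, limma). Lepr was the single call among 28 genes of leptin, gp130 cytokine and JAK-STAT signalling, with Jak1, Stat3 and Socs3 at 0.00, 0.23 and 0.08. Meis2, a homeobox gene of forebrain progenitors, was called with Hdx among 31 homeobox and patterning genes (1.18 ± 0.10, SE; adjusted p = 0.000116, limma), but line 59 tumors, at 8.23 to 8.35, nearly matched its 8.33 to 8.51.

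Xist was at 4.56, 3.77 and 4.33 in the line 123 tumors. It was at 10.05, 9.63 and 10.13 in line 1, 9.14, 8.97 and 9.09 in line 31, 9.85, 9.83 and 8.34 in line 59, and 8.14, 8.47 and 9.68 in the host tissue. Every line 123 tumor was more than 3.5 units below every other tumor and tissue array. The difference was -5.23 ± 0.28 (SE; adjusted p = 4.31e-06, limma), and it was called against each line. The line 123 mean of 4.22 lay under the 25th percentile of all genes (4.75), where a signal is not shown to be above background, so no fold is given. In culture, line 123 (5.93) was again low, with lines 95, 119, 120 and 331 at 5.53 to 6.24, while lines 3, 28, 31, 59 and 116 were at 11.16 to 11.97. The Y-linked genes Kdm5d, Eif2s3y and Uty were not called in the tumors, with differences of 0.24, 0.40 and 0.33. In culture they were lower in line 123 (6.54, 5.57 and 5.15) than in each of the other 4 lines with low Xist (at least 6.93, 7.09 and 6.37) and higher than in the 5 lines with high Xist (at most 6.05, 4.60 and 4.96). Among 12 sex-linked genes Xist was the single call. The mean signal of the 12, Xist included, differed among the line 123 tumors. It was 6.46 in replicate 1, 5.95 in replicates 2 and 3, and 6.35 to 6.76 in the other tumors. Of the 739 X-linked genes, 13 (1.76%) were called higher and 2 (0.271%) lower, against 0.627% and 0.221% over all genes. The X-linked genes above the median tumor level had a median difference of 0.20. It was 0.41 against line 1, 0.14 against line 31 and 0.04 against line 59. Relative to the mean of the 12 tumors, their median was 0.07 to 0.24 in the line 123 tumors and -0.28 to 0.38 in the others.

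Mmp9, a protease that cuts gelatin and collagen IV and is rich in neutrophils and macrophages, was at 4.90, 5.21 and 5.21 in line 123 and at 5.33 to 7.70 in the others. The difference was -1.33 ± 0.17 (SE; adjusted p = 0.0036, limma), but against line 59 it was -0.45 and not called (adjusted p = 0.501). The 14 neutrophil genes had a median of -0.38, and their mean signal was 4.42 to 4.49 in line 123, 4.27 to 4.48 in line 59, 4.62 to 5.61 in line 31 and 5.65 to 5.76 in line 1. Their part in the Mmp9 difference was not tested. The remaining named decreases were near or under 1 unit. Snx7, a sorting nexin, was at 7.71, 7.32 and 7.44 against 8.13 to 8.96 (-1.05 ± 0.16, SE; adjusted p = 0.00972, limma). Dync2li1 and Ift80, both needed for transport inside cilia, fell by 0.98 and 0.88. Vav3, a guanine nucleotide exchange factor, fell by 0.92, Rbm8a, of the exon junction complex, by 0.89, and Psmb4, a proteasome subunit, by 0.80. Dph3, of diphthamide synthesis, and Lacc1, a macrophage metabolic enzyme, fell by 0.79 and 0.78. In these 8 genes the 3 line 123 tumors lay below all 9 others, but none was called against each line alone. Without line 123 replicate 3 none of the 8 was called, and without replicate 2 Dph3 alone was, with differences of -1.03 and -0.97 for Snx7.

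Several decreases came from 1 other line and not from line 123. Of the 44 lower genes, 38 were called against line 1 and 29 against line 1 alone. These include a run on chromosome 4 (Caap1, Plaa, Ift74, Lrrc19, Tek, Mysm1, Jun and Tm2d1), whose differences were -3.98 to -2.89 against line 1, -0.37 to 0.35 against line 31 and -0.21 to 0.18 against line 59. Tek, an angiopoietin receptor, was at 5.93, 5.40 and 5.59 in line 123 and at 5.48 to 5.85 in lines 31 and 59, but at 9.23 to 9.66 in line 1. Tfpi2, an inhibitor of serine proteases, and Pdgfra, a receptor for platelet-derived growth factor, had the same pattern, with 0.07 and -0.34 against line 31 and -4.44 and -2.57 against line 1. Of the 125 higher genes, 115 were called against line 1, 65 against line 31 and 42 against line 59, and 42 against line 1 alone.

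Chromosome 3 held 14 of the 44 lower genes, among them Snx7, Vav3, Rbm8a, Ift80 and Psmb4, 5 of the 10 named decreases. Of its 943 genes 1.485% were called lower, against 0.221% over all genes. This pattern was looked at after the values were seen and is given without a test. Over the 523 chromosome 3 genes with tumor means above the median gene, the median difference was -0.35, and 88.2% were below 0, against a median of -0.01 and 51.2% over all such genes. It was -0.34 against line 1, -0.22 against line 31 and -0.49 against line 59. Relative to the mean of the 12 tumors, the chromosome 3 median was -0.06, -0.43 and -0.30 in the line 123 tumors and -0.08 to 0.37 in the others. Replicate 1 thus overlapped the line 31 tumors, and the lower level was seen in replicates 2 and 3. In culture, line 123 had the lowest chromosome 3 median of 10 lines, -0.27 against -0.13 to 0.22.

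**Figure D3:**
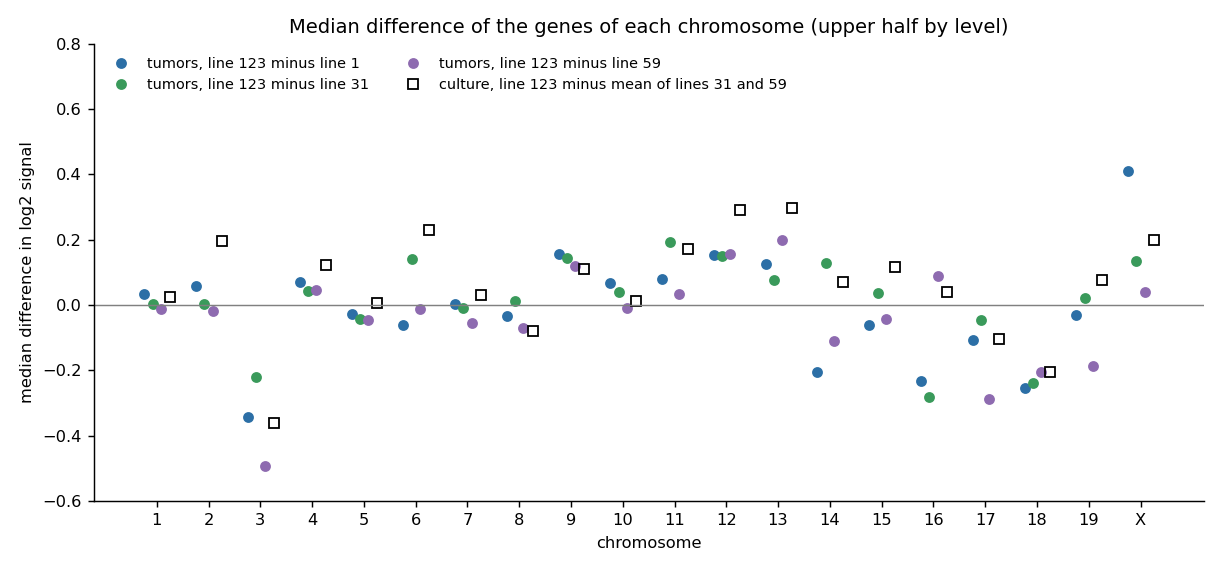
Median difference in log2 signal (vertical axis) of the genes above the median tumor level, by chromosome, for line 123 against each tumor line (points) and for line 123 against lines 31 and 59 in culture (squares). Chromosome 3 is the lowest against line 1 (-0.34), against line 59 (-0.49) and in culture (-0.36), while against line 31 chromosomes 16 (-0.28) and 18 (-0.24) lie below it (-0.22).

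Along chromosome 3, all 13 runs of about 40 such genes had medians below 0, from -0.45 to -0.12, both ends of the chromosome included, and all 13 were below 0 in culture. The call of Stmn2 as higher, together with those of Npnt, Arsj and Vmn2r1, thus went against the direction of its own chromosome. Chromosome 18 was also lower, at -0.23 in the tumors, with no overlap of the 3 line 123 tumors with the others, and at -0.23 in culture, the lowest of 10 lines. Chromosomes 9 and 13 were higher, at 0.14 and 0.12, likewise without overlap. In culture line 123 was at 0.07 and 0.14 for these 2, each 8th of 10 lines from the lowest. The other lines reached 0.10 and 0.22. Chromosome 12 changed along its length. Its first 2 runs of 40 genes (Rab10 to Sypl) had medians of -0.15 and -0.14, and the 7 further runs (F730043M19Rik to Tmem196) lay between 0.10 and 0.29. In culture the same runs were at -0.04 and -0.01, then 0.28 to 0.41. In line 123 replicate 2 the chromosome 12 median was -0.04, within the range of the other tumors (-0.06 to 0.01), and in replicates 1 and 3 it was 0.15 and 0.14. DNA copy number was not measured here.

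**Figure D4:**
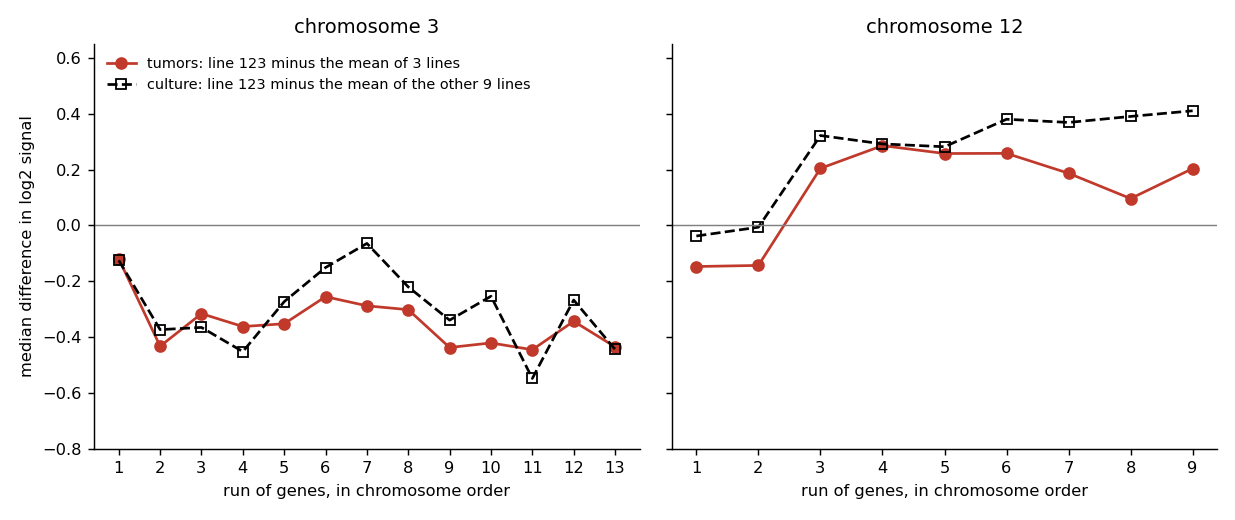
Median difference in log2 signal (vertical axis) over runs of about 40 genes in chromosome order (horizontal axis), in tumors (filled) and in culture (open). On chromosome 3 every run is below 0, and on chromosome 12 the values step between the 2nd and the 3rd run, from -0.14 to 0.20 in tumors and from -0.01 to 0.32 in culture.

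Most increases were also seen in line 123 in culture. Of the 125 genes called higher in the tumors, 117 (93.6%) were above the mean of lines 31 and 59 in culture, where 60.0% of all genes were. At least 2-fold differences were seen in 52 of the 125 (41.6%) and in 1.73% of all genes. All 24 genes higher against each line were above lines 31 and 59 in culture, 16 of them at least 2-fold. Against the other 9 lines 21 of the 24 (87.5%) were above, where 61.6% of all genes were. Against lines 119, 120 and 331 it was 18 (75.0%), where 62.5% of all genes were above, and 2 of the 24 were at least 2-fold below. Line 123 was the highest of 10 lines in 63 of the 125 (50.4%), against 19.4% over all genes. Of the 44 lower genes, 33 were below lines 31 and 59 in culture, 6 of them at least 2-fold, and 11 were above, where 40.0% of all genes were below and 0.853% at least 2-fold below. Culture here is a single array, so these counts have no replicate check.

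**Figure D5:**
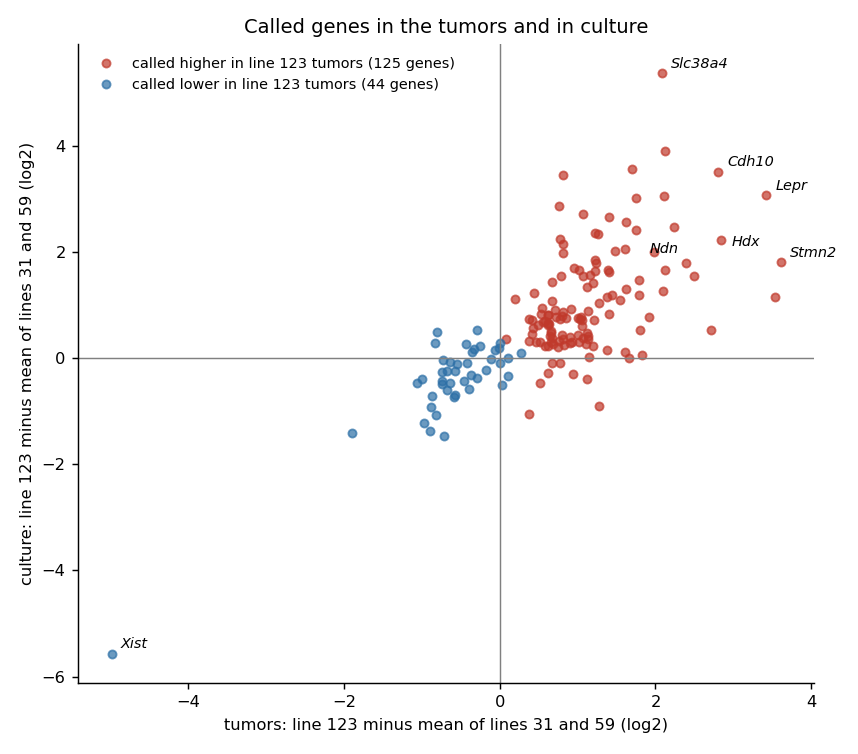
Difference in log2 signal of line 123 from the mean of lines 31 and 59 in tumors (horizontal axis) and in culture (vertical axis) for the 125 genes called higher and the 44 called lower in line 123 tumors. Slc38a4, Lepr and Cdh10 lie high on both axes, Xist lies lowest on both, and 117 of the 125 higher genes are above 0 in culture.

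The remaining lists held few calls. In 21 of the 44 lists no gene was called. They include 20 interferon response genes (median 0.11), 14 of antigen presentation (0.00), 24 of hypoxia and glycolysis (0.18), 15 of mural and smooth muscle cells (-0.06), 37 Hox genes (-0.09) and 27 of the Notch pathway (-0.02). Over the 1067 list genes measured, 20 were higher and 7 lower, against 125 and 44 of all 19937 genes. Both are larger shares than over all genes, and the lists were chosen with earlier results of these data known. The calls not yet named were F2r, the thrombin receptor (0.91 ± 0.13, SE; adjusted p = 0.00675, limma), Sc5d of cholesterol synthesis (0.97 ± 0.17, SE; adjusted p = 0.0186, limma), and Cxcl15, whose values of 3.05 to 3.07 in line 123 and from 3.28 in the others are near the lowest on the arrays.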

How the data were processed

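RNA was profiled on Affymetrix arrays, 1 per sample, from 100 ng of total RNA, per the labels. The authors deposited log2 signals, 1 for each probe set, and the submitters' processing notes name RMA, GCOS and Affymetrix Expression Console without versions. No genome build is stated for the array annotation in the sources used here. RMA spreads each array to a common distribution, so a shift of all genes would be hidden.

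Of 34760 probe sets, 21640 listed with 1 gene were used. For 954 genes with several, the probe set of the highest mean over the 27 arrays stood for the gene, which left 19937 genes. Line 123 was compared with lines 1, 31 and 59 with limma 3.58.1 (R 4.3.3): lmFit with 1 mean per tumor line, eBayes, 2-sided p-values with Benjamini-Hochberg adjustment across the 19937 genes, called under 0.05. The fit was tested on simulated data. Chromosomes and gene order came from RefSeq (GRCm38.p6, 19854 genes matched by Entrez ID). Tables were made in Python 3.11.15.

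The members, the 44 gene lists and the tests were chosen with earlier results of these data known. Named genes were the 10 largest increases and decreases among called genes without overlap of 3 against 9 tumors (no provisional symbols), Stmn2, Lepr, Hdx, up to 4 called genes per list, and Mdm2, Cdkn2a, Met, Egfr, Pdgfra, Pdgfrb, Sox2, Nes, Gfap, Olig2, Tubb3 and Mki67. Others, the chromosome medians and the neighbours were picked after their values were seen. Alternatives were other probe set rules, a level filter, other scalings, fits with more arrays, a replicate block, line as a random block, other sets of compared lines, and each tumor left out.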

Additional observations from a re-analysis of the deposited data

Results flagged for a closer look

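Among the 4 WT lines in culture, 20 genes (the 10 named increases and 10 named decreases) were checked for a line far from the others. Line 123 stood apart for Ndn, at 7.56 against 5.98 to 6.20, with a gap of 0.856 of the whole range; this passes Dixon's 95% limit for 4 samples. Chance alone marks about 1 in 20 such groups, and 20 genes were checked. These genes were picked because line 123 lay apart for them in the tumors, so that rate need not hold here and no conclusion is drawn.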

How the results depend on the processing

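All 39 called genes among the 50 named ones kept their direction under all alternatives run, except Tfpi2, which was at 0.0085 against lines 31 and 59 (the mean without line 1). Lepr, Hdx, Cdh10, Ndn, Tll1, C2, Xist and Olfr1372-ps1 were called in all of those in which they were tested. Leaving out each tumor in turn gave 44 (line 123 replicate 3) to 278 (line 31 replicate 3) genes called against the mean and 14 (line 123 replicate 3 or line 31 replicate 1) to 31 (line 123 replicate 1) against each line, and the count was 76 without line 123 replicate 2 and 110 without line 1 replicate 3. Of the 169 genes, 43 were still called without line 123 replicate 3, with 9 of the 10 named increases and 2 of the 10 named decreases. The count against the mean was 94 with 15 tissue arrays in 1 fit, 39 with the 9 other tumors as 1 group and 14 with line as a random block as well, 81 with a 2-fold threshold, 99 without line 1 in the mean (the same as against lines 31 and 59 alone), 335 without line 59 and 617 against line 1 alone. The count against each line was 14 among genes above the median level and 11 with 27 arrays in 1 fit. The cause was not tested. Cdkn2a was called at 0.60 without line 59 and at 0.99 against line 1. With a replicate block 146 genes were called against the mean and 23 against each line, and the replicate numbers did not pair the tumors: deviations of same-numbered tumors correlated at -0.28 to 0.34, over 0.1 in 3 of 18 pairs. Against the WT lines 119, 120 and 331 in culture, 87.2% of the higher genes were above. The chromosome 3 median, whose alternatives were added after the data were seen, was -0.49 to -0.19 over them, and that of chromosome 12 was 0.03 to 0.20. Only 3 arrays per line limit the precision, and low signals have no detection call here.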
